A study of Mus musculus with 34 samples.

Results

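The 10 genes described here encode subunits of the nucleosome remodelling and deacetylase complex (NuRD): Mta1, Mta2, Mta3, Mbd2, Mbd3, Chd4, Hdac1, Hdac2, Rbbp4 and Gatad2a. They were chosen by name as partners of the transcription factor Bcl11b and were matched by symbol among 24505 listed genes; the rule that picks them uses no measured value. All 10 were measured, and all 10 passed the filter on low values that left 12218 genes to test. RNA had been sequenced from CD4- and CD8-double-negative (DN) mouse thymocytes, the early cells that commit to the T lineage, with 300000 cells and 50-nt single reads per library. The 25 libraries used came from C57BL6/J mice that all carried Lck-Cre, a transgene that expresses the Cre recombinase from an Lck promoter in developing T cells.

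Wild-type (WT, Bcl11b +/+) cells gave 4 DN2 and 5 DN3 libraries, heterozygous (HET, Bcl11b flx/+) cells gave 5 DN2 and 6 DN3 libraries, and homozygous (HOM, Bcl11b flx/flx) cells gave 5 libraries. DN2 cells were YFP-negative and CD25-positive, DN3 cells were YFP-positive and CD25-positive, and HOM cells were YFP-positive and CD25-positive with no stage in their label. YFP is a fluorescent reporter. Stage and reporter therefore change together, and in HOM against any WT or HET group genotype and stage cannot be told apart. Ages and the number of animals are not given in the labels, so p-values measure the spread between libraries, which may be technical. Fewer cells of a type and less RNA per cell cannot be told apart in bulk RNA.

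NuRD joins 2 enzyme activities in a single complex: a CHD ATPase that moves nucleosomes and the class I deacetylases HDAC1 and HDAC2, which remove acetyl groups from histones. MTA proteins are the scaffold for the deacetylases, RBBP4 and RBBP7 bind histones, GATAD2 proteins link the CHD ATPase to the rest, and either MBD2, which binds methylated CpG, or MBD3 is built in, never both. NuRD has no sequence preference of its own and is brought to genes by DNA-binding factors, among them BCL11 and Ikaros proteins in lymphocytes.

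Library totals ran from 15772841 to 43105091 counts. Bcl11b stood at 106 ± 13.5 RPKM (counts per kilobase of exon, scaled to a common library total; SD, n = 5) in WT DN3 and at 49.6 ± 10.3 in HOM (n = 5). With 1 floxed allele it was at 104 ± 11.8 RPKM in HET DN3 (n = 6; log2 change from WT DN3 -0.07, SE 0.12, adjusted p = 0.718) and at 145 ± 15.1 RPKM in HET DN2 (n = 5), against 148 ± 12.4 RPKM in WT DN2 (n = 4). Of the 6 DN thymocyte markers (Il2ra, which encodes CD25, Ptcra, Cd3e, Rag1, Rag2 and Kit) none was at 0 in a group, and their summed level was 647 to 878 RPKM in HOM and 732 to 1123 RPKM elsewhere. The single markers differed more than their sum. In HOM against WT DN3, Kit was 5.15-fold and Il2ra 1.49-fold higher, and Ptcra was 2.34-fold, Cd3e 1.89-fold and Rag2 1.53-fold lower. Rag1 was not called (edgeR, adjusted p at most 0.0071 for the 5 called). That comparison called 39.4% of all genes tested, 19.8% higher and 19.7% lower. The part of these markers in the NuRD changes was not tested. Transcripts of other cells were high in 8 libraries. The summed level of 6 epithelial genes was 216 to 1991 RPKM in 6 libraries, namely replicates 1 and 2 of HET DN2 and replicates 2 and 3 of both HET DN3 and HOM, against 7.02 to 31.2 RPKM in the other 19. The sum of 5 mature T cell genes was 168 RPKM in WT DN2 replicate 2 and 146 RPKM in HET DN3 replicate 1, against at most 49.5 RPKM elsewhere, and HET DN3 replicate 1 also had 2340 RPKM of 6 erythroid genes. Below that level the mature T cell sum still differed between groups, at 16.8 to 49.5 RPKM in HOM and 2.1 to 11.3 RPKM in WT DN3, and 1 of the 5 genes, Il2rb, was called higher in HOM (24.3-fold, adjusted p = 0.0154). HOM replicate 4, which is not among the 8, had 109 RPKM of the erythroid genes, against 0.717 to 32.5 RPKM in the other HOM libraries. The part of these transcripts in the results was not tested beyond leaving libraries out. B cell genes summed to at most 10.8 RPKM and myeloid genes to at most 17.9 RPKM in any library. The myeloid sum was 0.797 to 3.09 RPKM in HOM and 4.72 to 9.09 RPKM in WT DN3.

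All 10 NuRD genes were well expressed in every group. Per length of exon, group means lay between the percentiles 77.9 (Gatad2a) and 96.9 (Chd4) of the genes tested. In WT DN3, the order of levels was Mta2 at 160 ± 7.27 RPKM, Mbd3 at 157 ± 14, Chd4 at 150 ± 11.2, Hdac1 at 138 ± 3.65, Mta1 at 116 ± 3.71, Rbbp4 at 98.8 ± 5.58, Hdac2 at 90 ± 4.47, Mta3 at 54.8 ± 5.88, Mbd2 at 53.6 ± 2.98 and Gatad2a at 40.3 ± 2.24 RPKM (SD, n = 5). Over all 25 libraries Mta3 varied most, with a coefficient of variation of 25.6% and a 2.32-fold span from 39.7 to 92 RPKM. Mbd3 came next at 18.2% and a 1.97-fold span, and Mta2 varied least at 8.49%. When each gene's 5 group means were put in order, the library ranges of neighbouring groups overlapped for all 10 genes, with the exception of Mbd3 between WT DN3 and WT DN2.

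**Figure D1:**
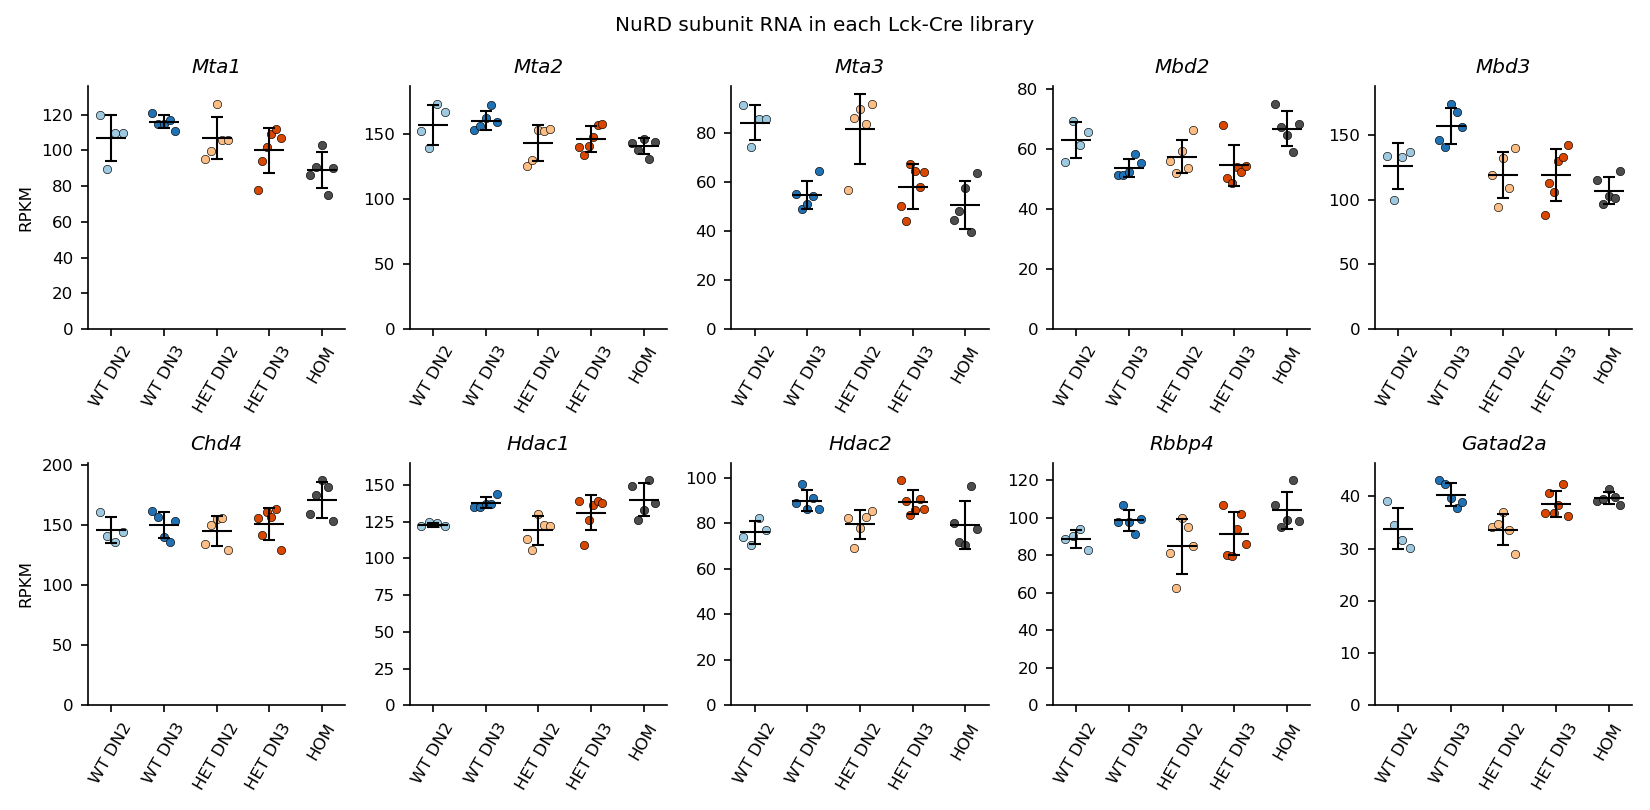
RPKM of the 10 NuRD genes in each of 25 libraries (points), with the group mean and SD (bars), by group on the horizontal axis; each vertical axis starts at 0. Mta3 is higher in both DN2 groups than in DN3 and HOM means, Mbd3 is highest in WT DN3 (141 to 174 RPKM), and Chd4 has its highest mean in HOM (171 RPKM).

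HOM was first set against WT DN3, the comparison of YFP-positive, CD25-positive cells with both alleles or no allele floxed. The 2 alternative MBD subunits moved in opposite directions. Mbd3, the subunit without a preference for methylated DNA in mammals, fell 1.49-fold, and Mbd2, the methyl-CpG reader, rose 1.22-fold. The scaffold genes Mta1 and Mta2 and the deacetylase gene Hdac2 fell by 1.32-fold, 1.16-fold and 1.16-fold. Of the 10 genes, 5 were thus called at an adjusted p under 0.05 (edgeR quasi-likelihood test, Benjamini-Hochberg adjustment over all genes tested), 1 higher and 4 lower, where 39.4% of all genes tested were called, 19.8% higher and 19.7% lower. The median log2 change of the 10 genes was -0.10, and that of all genes tested was 0.01.

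Mbd3 (NM_013595, chromosome 10, 79855284 to 79862276, build mm9) stood at 146, 141, 174, 168 and 156 RPKM in WT DN3 and at 115, 96.6, 103, 101 and 122 RPKM in HOM. The highest HOM library lay below the lowest WT DN3 library. This was a log2 change of -0.58 (SE 0.13, adjusted p = 0.000994). Mbd2 (NM_010773) had 51.4, 51.2, 52.3, 58.2 and 55.2 RPKM in WT DN3 and 74.9, 67.3, 64.5, 58.8 and 68.1 RPKM in HOM. Here too the groups did not overlap, with HOM replicate 4 just above the highest WT DN3 library. Its log2 change was 0.28 (SE 0.09, adjusted p = 0.0144). Both calls held when any single library was left out and under 8 other settings, with log2 changes of -0.63 to -0.51 for Mbd3 and 0.24 to 0.34 for Mbd2.

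Put together per library, Mbd3 held 74.5 ± 1.37% of the summed RPKM of Mbd2 and Mbd3 in WT DN3 (73.4 to 76.8%) and 61.6 ± 2.09% in HOM (59 to 64.2%). The other groups lay between, at 66.4 ± 5.14% in WT DN2, 67.3 ± 1.69% in HET DN2 and 68.2 ± 5.91% in HET DN3. The spread in HET DN3 came with replicate 1, at 56.5%, and without the 8 libraries with transcripts of other cells that mean was 71.6 ± 0.889% (n = 3). In HOM it was 62.6 ± 1.93% without them (n = 3). These shares are descriptions and were not tested.

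Mta1 (NM_054081, chromosome 12, 114336489 to 114375417), a scaffold that dimerises and holds the deacetylases, had 121, 115, 115, 117 and 111 RPKM in WT DN3 and 86.4, 90.9, 103, 75.3 and 90.4 RPKM in HOM. The groups did not overlap. Its log2 change was -0.40 (SE 0.10, adjusted p = 0.00245), and the call held without any single library. Mta2 (NM_011842, chromosome 19, 9016410 to 9026790), its paralog, had 153, 156, 162, 172 and 159 RPKM in WT DN3 and 143, 138, 146, 131 and 144 RPKM in HOM. These groups did not overlap either, but the change was small, -0.22 (SE 0.07, adjusted p = 0.0172). The Mta2 call was lost without WT DN3 replicate 3 (adjusted p = 0.0614), WT DN3 replicate 4 (0.072) or HOM replicate 4 (0.0725). Fitted on the 2 groups alone with the replicate number as a block, it was lost too (adjusted p = 0.0502). Mta3, the third paralog, was at 54.8 ± 5.88 RPKM in WT DN3 and 50.8 ± 9.81 RPKM in HOM (log2 change -0.14, SE 0.14, adjusted p = 0.439).

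Hdac2 (NM_008229, chromosome 10, 36694350 to 36721694) had 89, 97.1, 86.5, 91.2 and 86.1 RPKM in WT DN3 and 80, 71.8, 70.6, 96.5 and 77.6 RPKM in HOM. HOM replicate 4 lay among the WT DN3 libraries and the other 4 lay below them. Hdac2 changed by -0.21 on the log2 scale (SE 0.08, adjusted p = 0.0361). This was the least stable of the 5 calls, and it was kept in 3 of 8 other settings. It was lost without the 8 libraries with transcripts of other cells (-0.11, adjusted p = 0.209) and without the 6 with epithelial transcripts (-0.11, adjusted p = 0.251). Limma (adjusted p = 0.0518) and edgeR on the 2 groups alone, without (0.0878) or with (0.121) the replicate number as a block, lost it too. So did leaving out any of WT DN3 replicates 1 to 5 or HOM replicates 1, 2, 3 or 5 (adjusted p 0.0533 to 0.102). Hdac1, the other deacetylase, was at 138 ± 3.65 RPKM in WT DN3 and 140 ± 11.3 RPKM in HOM (log2 change -0.01, SE 0.07, adjusted p = 0.935).

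The library ranges of HOM and WT DN3 were separate for 4 of the 10 genes (Mbd2, Mbd3, Mta1 and Mta2), as for 30.4% of all genes tested. Hdac2 was called with overlapping ranges. Mta3, Hdac1, Chd4, Rbbp4 and Gatad2a did not pass the test. Chd4, the ATPase, had 162, 157, 140, 136 and 153 RPKM in WT DN3 and 159, 175, 187, 182 and 153 RPKM in HOM. These ranges overlapped, with 3 HOM libraries above all of WT DN3 (log2 change 0.16, SE 0.08, adjusted p = 0.0939). Rbbp4, the histone chaperone, gave a log2 change of 0.04 (SE 0.11, adjusted p = 0.788), and Gatad2a, which links the ATPase to the rest of the complex, gave -0.06 (SE 0.07, adjusted p = 0.57).

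The promoters of the 4 genes that fell in HOM against WT DN3 are shown so that they can be read side by side; 7 of the 10 genes had an entry in the RefSeq promoter table (build GRCm38.p6), with 9 entries. Each line gives the 250 bases before the transcript start, and capitals mark the GC box GGGCGG or its reverse complement CCGCCC, the site of SP-family factors. They lie at chr12:113098028-113098277 (Mta1, + strand), chr19:8941670-8941919 (Mta2, + strand), chr10:80399532-80399781 (Mbd3, - strand) and chr10:36974294-36974543 (Hdac2, + strand).
Mta1: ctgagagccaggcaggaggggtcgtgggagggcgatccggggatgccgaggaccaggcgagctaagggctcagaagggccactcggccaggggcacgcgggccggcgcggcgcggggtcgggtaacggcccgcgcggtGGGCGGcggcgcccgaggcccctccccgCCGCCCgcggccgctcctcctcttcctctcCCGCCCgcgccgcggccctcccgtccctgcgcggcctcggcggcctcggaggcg
Mta2: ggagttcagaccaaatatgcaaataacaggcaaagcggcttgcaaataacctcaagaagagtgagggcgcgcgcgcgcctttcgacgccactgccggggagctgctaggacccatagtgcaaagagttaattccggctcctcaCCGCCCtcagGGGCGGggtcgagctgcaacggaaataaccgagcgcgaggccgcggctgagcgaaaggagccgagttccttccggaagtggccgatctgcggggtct
Mbd3: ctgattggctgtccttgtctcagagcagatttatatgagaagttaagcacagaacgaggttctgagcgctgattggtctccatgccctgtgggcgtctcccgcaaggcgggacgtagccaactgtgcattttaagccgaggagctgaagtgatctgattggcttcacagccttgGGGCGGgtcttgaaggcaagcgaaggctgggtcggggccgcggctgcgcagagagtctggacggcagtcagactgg
Hdac2: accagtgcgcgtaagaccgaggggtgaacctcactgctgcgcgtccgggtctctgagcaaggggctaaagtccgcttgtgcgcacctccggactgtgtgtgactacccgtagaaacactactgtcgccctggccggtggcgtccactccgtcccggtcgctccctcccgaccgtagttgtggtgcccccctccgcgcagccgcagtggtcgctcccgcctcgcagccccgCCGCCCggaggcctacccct

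These windows held 3, 2, 1 and 1 GC boxes. At least 1 was present in all 9 member entries, against 32.7% of 32851 mouse promoter entries of the same length. The 9 entries belong to 7 genes, and the Chd4 windows share bases. The mouse entries were not matched to the members for GC content, and its part in this share was not tested. GC content was 80.8% for Mta1, 60.4% for Mta2, 57.6% for Mbd3 and 68.8% for Hdac2, and the median of all entries was 52.4%. Members that were not called had 54.0 and 67.6% (Chd4), 67.6% (Rbbp4), and 64.0 and 70.4% (Gatad2a). The number of CpG was 39, 24, 14 and 27 for Mta1, Mta2, Mbd3 and Hdac2, against a median of 6 for all entries. It was 12 and 23 for Chd4, 30 for Rbbp4, and 18 and 20 for Gatad2a. Mta2 held 3 matches to the ETS core CCGGAA, 2 of which overlap on opposite strands, and 12.0% of all entries held at least 1. Mbd3 held 3 matches to CCAAT, read as attgg on the strand shown, and 33.8% of all entries held this box. Members that were not called held both motifs too. CCAAT was found in Chd4, Rbbp4 and Gatad2a, and the ETS core in Gatad2a. Neither the BCL11A-type motif TGACCA (11.4% of entries) nor the cyclic AMP element TGACGTCA (1.55%) was found in a member entry, and the Runx motif TGTGGT (14%) was found in Hdac2 and Rbbp4. All motifs were searched on both strands, and a match is a description of letters only.

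Other subunits outside the 10 were read from a list of 10 further NuRD genes, 9 of them tested. In HOM against WT DN3 none rose, 3 fell and 6 were not called, with a median log2 change of -0.16. Of all genes tested 39.4% were called, 19.8% higher and 19.7% lower. Chd3, an ATPase that can take the place of Chd4, had the largest of the 3 changes. It went from 76.8 ± 3.26 RPKM in WT DN3 to 36.9 ± 6.01 RPKM in HOM (log2 change -1.09, SE 0.11, adjusted p = 9.98e-08). The Chd4 share of the summed RPKM of Chd3, Chd4 and Chd5 was 66 ± 2.4% in WT DN3 and 82.2 ± 3.07% in HOM, where the lowest library, at 77.5%, lay above the highest library of any other group (72.8%). Rbbp7, the paralog of Rbbp4, changed by -0.31 (SE 0.11, adjusted p = 0.0328), and the demethylase gene Kdm1a by -0.24 (SE 0.06, adjusted p = 0.00472). The Rbbp4 share of Rbbp4 and Rbbp7 was 39.2 ± 1.22% in WT DN3 and 45.2 ± 0.713% in HOM, with the HOM libraries (44.2 to 46.2%) above those of all other groups (36.5 to 43.6%). The Hdac2 share of Hdac1 and Hdac2 differed less, at 39.5 ± 1.63% and 36.1 ± 1.56%, with overlapping libraries.

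**Figure D2:**
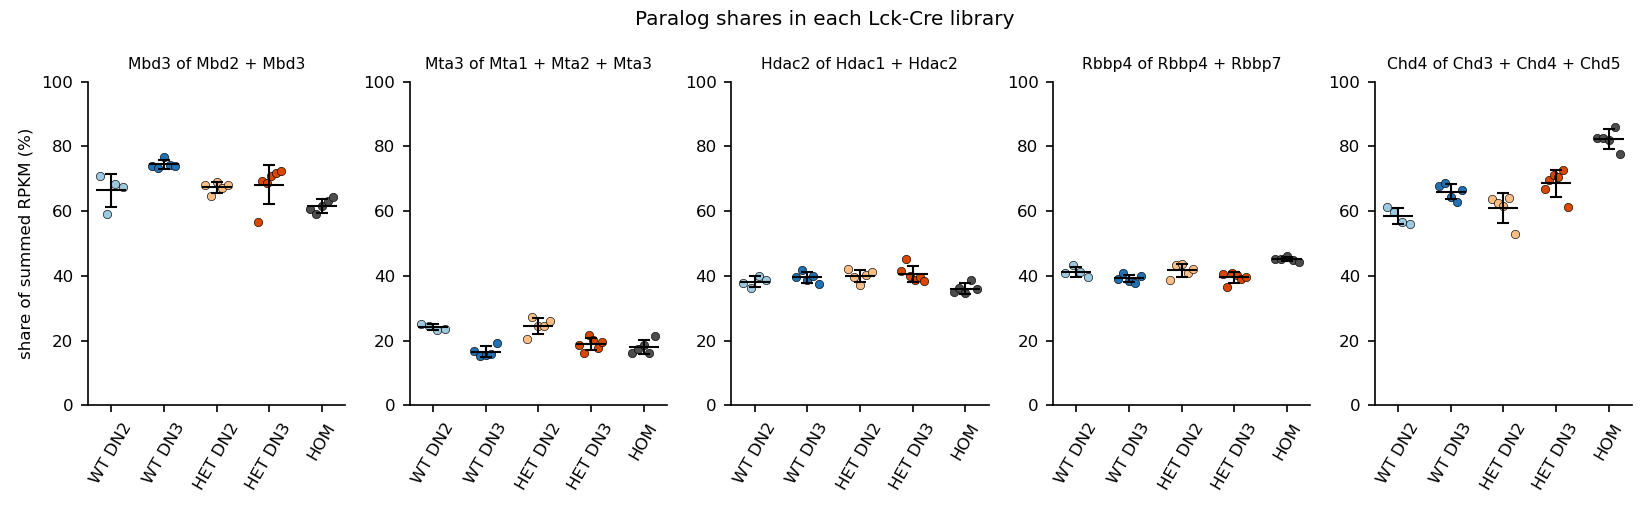
Share of the summed RPKM of a set of paralogs held by Mbd3, Mta3, Hdac2, Rbbp4 and Chd4, in percent from 0 to 100, by group; points are libraries, bars are mean and SD. The Mbd3 share is highest in WT DN3 (73.4 to 76.8%), the Mta3 share is high in DN2, and the Rbbp4 and Chd4 shares are highest in HOM.

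Among 23 genes of the other class I deacetylase complexes (Sin3, CoREST and NCoR), 1 rose and 6 fell in HOM against WT DN3, with a median log2 change of -0.09. That comparison called 39.4% of all genes tested, 19.8% higher and 19.7% lower. The Sin3 subunit gene Sap30 (-0.56, adjusted p = 0.000408), the Sin3-bound Ing1 (-0.38, adjusted p = 0.000599) and the CoREST subunit gene Hmg20b (-0.59, adjusted p = 0.000804) fell. Among 10 DNA-binding partners of NuRD, 2 rose and 3 fell, Bcl11b itself included. The Ikaros family genes Ikzf2 (1.21, adjusted p = 1.64e-05) and Ikzf1 (0.44, adjusted p = 0.00295) rose, and Bcl11a, the paralog of Bcl11b, went from 1.7 RPKM in WT DN3 by a log2 change of -1.66 (SE 0.42, adjusted p = 0.00344).

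**Figure D3:**
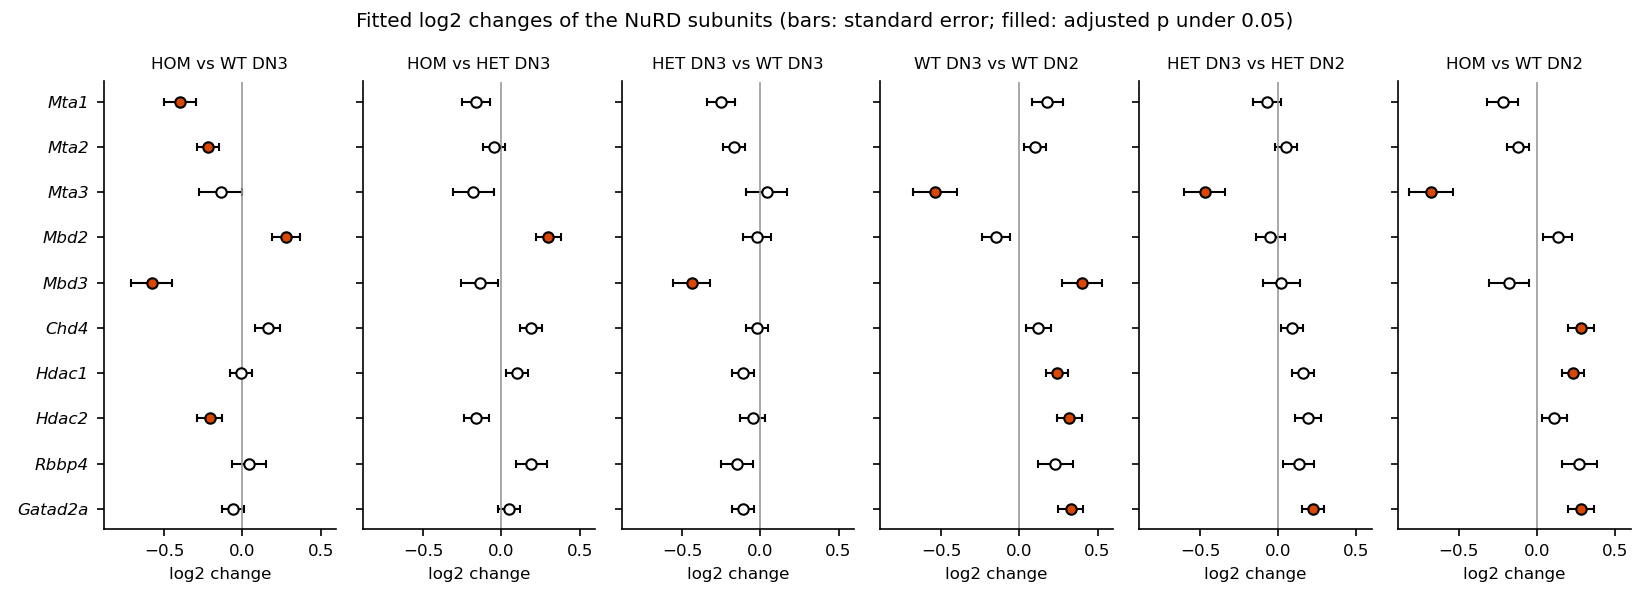
Fitted log2 change (horizontal axis, with its standard error) of each NuRD gene in 6 comparisons; filled points have an adjusted p under 0.05. In HOM against WT DN3 Mbd3 lies at -0.58 and Mbd2 at 0.28, and in WT DN3 against WT DN2 Mta3 lies at -0.54 against 4 genes called higher.

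HOM was next set against HET DN3, cells that keep an unfloxed allele. Mbd2 was the gene called of the 10, where 24.8% of all genes tested were called, 11.8% higher and 13.0% lower. Library ranges were separate for 0 of the 10, and for 11.6% of all genes. It had a lowest, median and highest value of 48.7, 53.2 and 67.9 RPKM in HET DN3 (n = 6) and the HOM values given above. The ranges overlapped through HET DN3 replicate 1, at 67.9 RPKM, a library with mature T and erythroid transcripts. Mbd2 thus gave a log2 change of 0.30 (SE 0.08, adjusted p = 0.011), and it was 0.25 (adjusted p = 0.0979) without the 6 libraries with epithelial transcripts. The Mbd2 call held without any single library and in 7 of 8 other settings, the fit without the 8 libraries among them. Mbd3, at 119 ± 20.1 RPKM in HET DN3 (n = 6) and 107 ± 10.6 RPKM in HOM (n = 5), was not called (log2 change -0.14, SE 0.12, adjusted p = 0.451). Mta1 gave -0.16 (adjusted p = 0.237) with all libraries and -0.36 (adjusted p = 0.00485) without the 8 libraries. Chd4 gave 0.19 (SE 0.07, adjusted p = 0.0646) and passed the test without WT DN3 replicate 3 or 4, HET DN3 replicate 5 or HOM replicate 5 (adjusted p 0.0396 to 0.0495). Hdac2 gave -0.16 (SE 0.08, adjusted p = 0.123) and passed without HOM replicate 4 (-0.23, adjusted p = 0.0226). Chd3 of the further NuRD genes fell by 0.89 on the log2 scale (adjusted p = 1.5e-06) and the other 8 tested were not called. Of the 23 genes of other deacetylase complexes 2 rose and 2 fell, Hmg20b by 0.49 on the log2 scale (adjusted p = 0.0042) among the latter.

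A single floxed allele was examined in HET DN3 against WT DN3, 2 groups in which Bcl11b RNA was not called different. Counts over all exons of a transcript do not tell RNA of an intact allele from RNA of a recombined one. Of the 10 genes Mbd3 alone passed the test, and it fell 1.36-fold, where 7.37% of all genes tested were called, 4.31% higher and 3.06% lower. Library ranges were separate for 0 of the 10, and for 6.06% of all genes. The HET DN3 libraries had a lowest, median and highest value of 88.2, 121 and 142 RPKM, against 141 to 174 RPKM in WT DN3. HET DN3 replicate 6, at 142 RPKM, was the library that reached into the WT DN3 range. Its fitted log2 change was -0.44 (SE 0.12, adjusted p = 0.037). The lowest library, HET DN3 replicate 1, carried mature T and erythroid transcripts. The call was lost without the 8 libraries (-0.26, adjusted p = 0.226), without the 6 libraries (-0.39, adjusted p = 0.102), and without any of WT DN3 replicates 1, 3, 4 or 5 or HET DN3 replicates 1, 2 or 3 (adjusted p 0.0537 to 0.125). Mta1 gave -0.25 (SE 0.09, adjusted p = 0.0893) and Mta2 gave -0.17 (SE 0.07, adjusted p = 0.0957). These 2 genes and Mbd3 had lower means in HET DN3 and HOM than in WT DN3. So did Hdac2 (89.3 and 79.3 against 90 RPKM) and Gatad2a (38.5 and 39.6 against 40.3 RPKM). Both comparisons use the same WT DN3 libraries. Of the further NuRD genes 0 of 9 were called, and of the other deacetylase complexes 2 of 23 fell, Suds3 by 0.32 and Ing1 by 0.26 on the log2 scale (adjusted p = 0.0251 and 0.0427).

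In HET DN2 against WT DN2, cells sorted as YFP-negative, 0 of the 10 genes were called by edgeR, as were 0% of all genes tested, and library ranges were separate for 0 of the 10 and for 1.42% of all genes. At an unadjusted p under 0.05 the count was 0 of 10, against 912 of all genes. DESeq2 called 182 genes and limma called 0. Log2 changes of the 10 genes ran from -0.12 (Mta2 and Mbd2) to 0.08 (Hdac2).

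The stage step was read from WT DN3 against WT DN2, in which the sorting gate also changed from YFP-negative to YFP-positive. Mta3 fell 1.46-fold, while Mbd3, Gatad2a, Hdac2 and Hdac1 rose by 1.32-fold, 1.26-fold, 1.25-fold and 1.18-fold. In all 5 of 10 genes were called, 4 higher and 1 lower, where 21.5% of all genes tested were called, 12.2% higher and 9.30% lower. The median log2 change was 0.21 over the 10 genes and -0.02 over all genes. Library ranges were separate for Mta3, Mbd3, Hdac1 and Hdac2, 4 of the 10, as for 31.7% of all genes.

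Mta3 (NM_001171052, chromosome 17, 84105503 to 84204762) had 91.4, 74.4, 85.9 and 85.8 RPKM in WT DN2 and 55.2, 49.1, 51.2, 54.2 and 64.4 RPKM in WT DN3. Every DN2 library lay above every DN3 library. Mta3 changed by -0.54 on the log2 scale (SE 0.14, adjusted p = 0.00976), and the call held without any single library. Its share of the summed RPKM of the 3 MTA genes was 24.2 ± 0.84% in WT DN2 and 16.6 ± 1.62% in WT DN3, so that Mta1 and Mta2 made up more of the scaffold RNA in DN3. The HOM share was 18 ± 2.18%.

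Gatad2a (NM_145596, chromosome 8, 72430968 to 72520283) had 39.1, 34.4, 31.7 and 30.1 RPKM in WT DN2 and 43, 42.3, 39.6, 37.8 and 38.9 RPKM in WT DN3. WT DN2 replicate 1 lay within the DN3 range and the other 3 lay below it. Gatad2a changed by 0.33 on the log2 scale (SE 0.08, adjusted p = 0.00412). Hdac2 had 74.2, 70.6, 82.4 and 77.2 RPKM in WT DN2, all below the lowest WT DN3 library at 86.1 RPKM (log2 change 0.32, SE 0.08, adjusted p = 0.00914). The Gatad2a and Hdac2 calls held without any single library. Hdac1 (NM_008228, chromosome 4, 129193348 to 129219890) had 122, 125, 124 and 122 RPKM in WT DN2 and 135, 135, 137, 137 and 144 RPKM in WT DN3. The DN2 libraries lay close together and below all DN3 libraries (log2 change 0.24, SE 0.07, adjusted p = 0.0231). That call was lost without WT DN2 replicate 1 or 4 or WT DN3 replicate 3 or 5 (adjusted p 0.0501 to 0.0539). Limma lost it too (log2 change 0.16, adjusted p = 0.117). So did a total count of at least 10 as the filter (log2 change 0.23, adjusted p = 0.0896).

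Mbd3 had 134, 99.6, 133 and 137 RPKM in WT DN2, below the WT DN3 range of 141 to 174 RPKM. WT DN2 replicate 2, the lowest, was the library with mature T transcripts. This gave a log2 change of 0.40 (SE 0.13, adjusted p = 0.0383), and without that library it was 0.30 (adjusted p = 0.152). The call was also lost without WT DN2 replicate 1 or 3 or WT DN3 replicate 3, 4 or 5 (adjusted p 0.0519 to 0.0953). It was kept in 6 of 8 other settings, among them the fit without the 8 libraries with transcripts of other cells. Limma (adjusted p = 0.0746) and a total count of at least 10 as the filter (0.0861) lost it. Fitted on the 2 groups alone, 4497 genes were called in place of 2622, and 6 of the 10 genes, Rbbp4 being the gene added (log2 change 0.23, adjusted p = 0.0186, against 0.155 with all 5 groups). With the replicate number as a block in that fit, 5510 genes were called, and 7 of the 10 genes. The gene added by the block was Mta1 (log2 change 0.20, adjusted p = 0.0366).

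Of the 9 further NuRD genes tested, 2 rose and 1 fell from WT DN2 to WT DN3, where 21.5% of all genes tested were called. Cdk2ap1, a small NuRD subunit gene, rose by 0.61 (SE 0.14, adjusted p = 0.0044), Rbbp7 rose by 0.35 (adjusted p = 0.0383) and Chd3 fell by 0.35 (SE 0.12, adjusted p = 0.0342), all on the log2 scale. Of the 23 genes of other deacetylase complexes 1 rose and 2 fell. In the same step 3 of 8 cycling genes were called higher (Mcm2, Mcm5 and Pcna) and 5 were not called. The summed level of the 8 was 920 to 1134 RPKM in WT DN2 and 1198 to 1404 RPKM in WT DN3, with none at 0. Their part in the NuRD changes was not tested.

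In HET DN3 against HET DN2, 2 of the 10 genes were called, 1 higher and 1 lower, where 10.9% of all genes tested were called, 6.36% higher and 4.52% lower. Library ranges were separate for 0 of the 10, and for 5.26% of all genes. Mta3 had 56.7, 86.1, 90.1, 83.8 and 92 RPKM in HET DN2 and a lowest, median and highest value of 44.1, 61 and 67.5 RPKM in HET DN3. HET DN2 replicate 1, with 1647 RPKM of epithelial genes, lay inside the DN3 range and the other 4 lay above it. Mta3 changed by -0.47 on the log2 scale (SE 0.13, adjusted p = 0.0225), and the call was lost without HET DN2 replicate 3 or 5 or HET DN3 replicate 1 or 2 (adjusted p 0.0505 to 0.0617). Gatad2a rose by 0.22 (SE 0.07, adjusted p = 0.0461), and that call was kept in 10 of 25 fits that left out a single library (highest adjusted p 0.13, without HET DN2 replicate 5). Hdac1 and Hdac2 gave 0.16 and 0.19, each with an adjusted p of 0.112. Without HET DN3 replicate 2, Hdac1 passed (0.21, adjusted p = 0.0357), and without HOM replicate 4, Hdac2 passed (0.20, adjusted p = 0.049). Mbd3 gave 0.02 (SE 0.12, adjusted p = 0.942).

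Whether the step differed between genotypes was tested as an interaction. The edgeR fit called 0 of the 10 genes, as it did 0% of all genes tested, while 1 of 10 and 1112 of all genes had an unadjusted p under 0.05. DESeq2 called 20 genes and limma 0. The gene with an unadjusted p under 0.05 was Mbd3, with a HET step lower than the WT step by a log2 difference of -0.38 (SE 0.18, unadjusted p = 0.0473, adjusted p = 0.546). For Mta3 the difference was 0.07 (SE 0.20, adjusted p = 0.948).

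HOM against WT DN2 completed the set, and 4 of the 10 genes were called, 3 higher and 1 lower, where 41.2% of all genes tested were called, 21.3% higher and 19.9% lower. Mta3 fell 1.61-fold (log2 change -0.68, SE 0.14, adjusted p = 0.000637). Its HOM libraries had 44.5, 48.2, 57.8, 39.7 and 63.7 RPKM, all below the lowest WT DN2 library at 74.4 RPKM. Hdac1 rose by 0.23 (SE 0.07, adjusted p = 0.015) and Gatad2a by 0.28 (SE 0.08, adjusted p = 0.00643) on the log2 scale. The Hdac1 call was lost with a total count of at least 10 as the filter (adjusted p = 0.0906), with limma (0.0532) and with the replicate block (0.116), and the Gatad2a call with the block (0.0659). Chd4 rose 1.22-fold, from 161, 141, 136 and 144 RPKM in WT DN2 (log2 change 0.28, SE 0.08, adjusted p = 0.0082). The Chd4 call was lost without the 8 libraries (0.21, adjusted p = 0.124), without the 6 libraries (0.23, adjusted p = 0.0704) and with the block (0.32, adjusted p = 0.0577). Mbd2, Mbd3 and Hdac2 were not called, at 0.13, -0.18 and 0.11 (adjusted p = 0.275, 0.292 and 0.32). Mta1 gave -0.22 (SE 0.10, adjusted p = 0.0932), and it passed without WT DN2 replicate 2 (-0.30, adjusted p = 0.031), without HOM replicate 3 (-0.28, adjusted p = 0.0401) and without the 8 libraries (-0.38, adjusted p = 0.00188). Rbbp4 gave 0.27 (SE 0.11, adjusted p = 0.0591), and it passed without HET DN2 replicate 2 or 3 or HOM replicate 2 (adjusted p 0.0192 to 0.0487), and also without the 6 libraries (0.34, adjusted p = 0.00549), without the 8 libraries (0.34, adjusted p = 0.00708), with the 2 groups alone (0.27, adjusted p = 0.0362) and with DESeq2 (0.27, adjusted p = 0.0499). Library ranges were separate for Mta3, Hdac1 and Rbbp4, 3 of 10, as for 35.0% of all genes. Of the 9 further NuRD genes 1 rose (Cdk2ap1, 0.45) and 3 fell (Chd3, -1.44; Cdk2ap2, -0.51; Zmynd8, -0.35).

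Across the 25 libraries the NuRD genes did not move as a block. Pearson correlations of log2(RPKM + 1) between pairs ran from -0.68 (Mta3 with Gatad2a) to 0.84 (Hdac1 with Rbbp4). Mbd3 correlated with Mta2 (r = 0.76) and Mta1 (r = 0.75), and the coefficients were 0.67 and 0.64 after group means were removed. Mta1 and Mta2 gave 0.69, and 0.62 with group means removed. The Mta3 and Gatad2a correlation was -0.17 once group means were removed. The points share groups, depth and the transcripts of other cells, so the coefficients are descriptions and carry no p.

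Rbbp4 ran with the cycling genes. Its correlation with the summed RPKM of the 8 cycling genes was 0.89 over 25 libraries and 0.92 after group means were removed. Hdac1 gave 0.76 and 0.65, Hdac2 gave 0.67 and 0.67, and Mta1 gave 0.01 and -0.02. HET DN2 replicate 2 was the library lowest in the cycling sum, at 509 RPKM, and also lowest in Rbbp4, at 62.4 RPKM, and it carried 1836 RPKM of epithelial genes. HOM replicate 4 was highest in both, at 1484 and 120 RPKM.

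**Figure D4:**
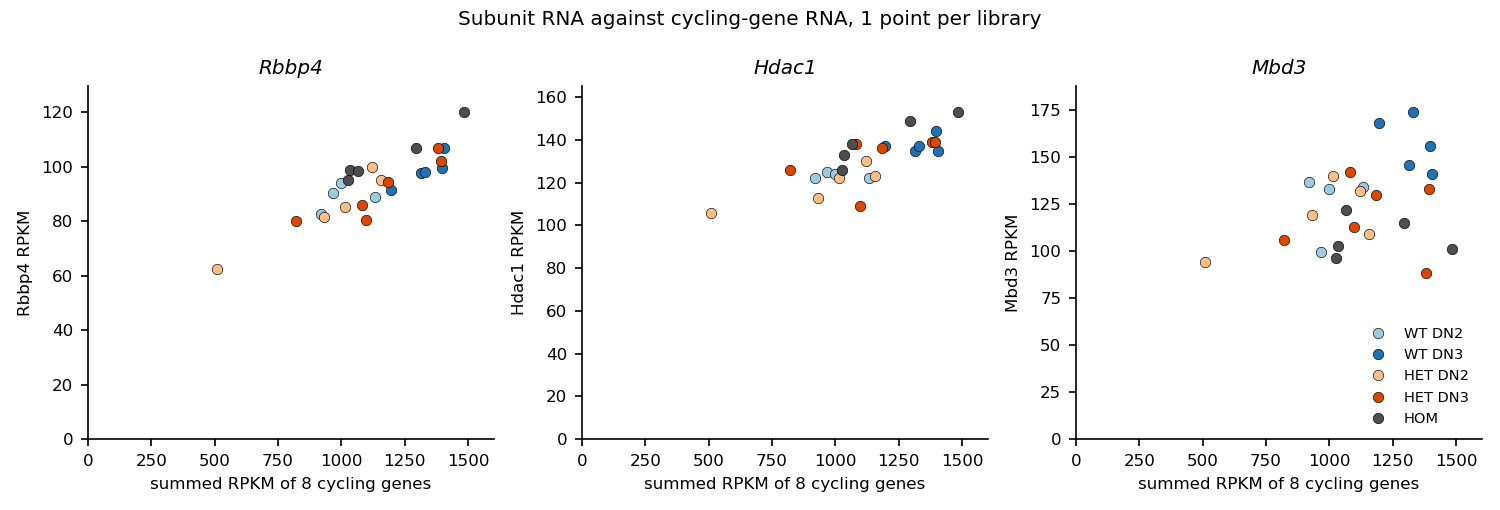
RPKM of Rbbp4, Hdac1 and Mbd3 (vertical axes from 0) against the summed RPKM of 8 cycling genes (horizontal axis) in 25 libraries, coloured by group. Rbbp4 and Hdac1 rise along the cycling sum (r = 0.89 and 0.76), while Mbd3 (r = 0.36) is spread at each level of it.

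The genes most alike to each member called in HOM against WT DN3, by Pearson correlation over the 25 libraries, were Tcf3, Ints1 and Rbm15b for Mta1 (r = 0.93, 0.91 and 0.91) and Irf2bp1, Maz and Ptpn7 for Mta2 (r = 0.92, 0.90 and 0.89). For Mbd3 they were Rrp1, Xrcc1 and Mllt1 (r = 0.94, 0.93 and 0.93). For Mbd2 they were H2-T22, H2-T9 and Srgn (r = 0.86, 0.86 and 0.84), and for Hdac2 they were Kpna1, Dnajc2 and Uchl5 (r = 0.88, 0.87 and 0.86). H2-T22 and H2-T9 are close copies of each other, and reads may be split between them. Of the 10 NuRD genes, 0 were among those listed in the table of the Vav1-iCre libraries, which holds a selection of genes.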

How the data were processed

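RNA was measured in 25 Lck-Cre libraries of 5 groups. Tools listed in the submitters' processing notes are edgeR 3.6.8, HOMER, RSEM 1.2.25, STAR 2.4.0 and Trimmomatic 033, with NCBIM37 and mm9 as builds. Per the file headers, the deposited values are raw read counts over the exons of a single transcript per gene, without normalization. Whether counting used strand is not given in the sources used here, so reads of Rbbp4 and the antisense gene Sync (0.4 to 2.05 RPKM) cannot be told apart, and Chd4 holds the microRNA gene Mir7045.

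In 10 columns (4 WT DN2, 6 HET DN3) 26 values of date-like symbols were missing and later values stood beside wrong names. They were moved down, which touched Mta1, Mta2, Mta3, Mbd2, Mbd3 and Rbbp4, and 114 genes of unsettled order were left out. The log-scale correlation of the 101 rows around each of these 6 genes with the other columns was then 0.942 to 0.99, against 0.943 to 0.994 in columns that were complete.

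RPKM was computed from counts, exon lengths and column totals. Genes with a mean of at least 1 RPKM in a group were tested with edgeR 4.0.16 (R 4.3.3; quasi-likelihood test, TMM, trended dispersion, all 5 groups in 1 fit), 2-sided, with Benjamini-Hochberg adjustment and calls at an adjusted p under 0.05. limma 3.58.1 on log2(RPKM + 1) and DESeq2 1.42.0 were alternatives, and the test was tried on simulated counts. The rule for the members uses no measured value, but members, lists and tests were chosen with earlier results of these data known. Named genes were the 10 members, Bcl11b and up to 4 called genes per list and comparison with the smallest adjusted p. A gene that this rule took is not reported here. Equal replicate numbers correlated across genes in WT DN3 against WT DN2 (r = 0.171, 0.266, 0.434 and 0.609 for the 4 numbers). For numbers 1 to 5, r was 0.191, 0.746, 0.636, -0.006 and 0.513 in HOM against HET DN3. It was -0.308, 0.728, -0.697, 0.736 and 0.509 in HET DN3 against HET DN2. The remaining comparisons gave r from -0.247 to 0.12. The labels do not give equal replicate numbers as pairs, and the main fit did not pair them. Replicate numbers entered only through the replicate block, which was an alternative setting in every comparison.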

Additional observations from a re-analysis of the deposited data

Results flagged for a closer look

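In 55 groups of 4 to 6 libraries, 3 values stood far from the other libraries of their group, by the gap to the nearest library against the range of the group. Mta3 was 56.7 RPKM in HET DN2 replicate 1, against 83.8 to 92 RPKM in the other 4. Mbd2 was 67.9 RPKM in HET DN3 replicate 1, against 48.7 to 54.1 RPKM in the other 5. Mbd3 was 99.6 RPKM in WT DN2 replicate 2, against 133 to 137 RPKM in the other 3. All 3 libraries carried transcripts of other cells: the epithelial sum was 1647 RPKM in HET DN2 replicate 1, and the mature T cell sums were 146 RPKM in HET DN3 replicate 1 and 168 RPKM in WT DN2 replicate 2. Their part in these values was not tested. Chance flags about 1 in 20 groups.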

How the results depend on the processing

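The lowest count of a member in a library was 1637 (Mbd2), so the precision rests mainly on the spread between the 4 to 6 libraries of a group. The 8 settings beside leaving out a library were RLE size factors, a total count of at least 10 as the filter, the fit without 6 or without 8 libraries, 2 groups only without or with a replicate block, limma and DESeq2. The cause of each shift below was not tested.

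In HOM against WT DN3, called members went from 5 to 3 with the replicate block. In HOM against HET DN3 the block called 1521 genes, and called members were 0 without 6 libraries, 2 without 8 libraries and 2 with DESeq2. In HET DN3 against WT DN3, called genes went from 900 to 438 with the count filter, 212 without 6 libraries, 75 without 8 libraries, 65 with 2 groups, 334 with the block, 458 with limma and 1877 with DESeq2, and called members were 0 without 6 libraries, without 8 libraries and with 2 groups. In HET DN2 against WT DN2, called genes were 1 without 6 libraries, 1 without 8 libraries, 9 with the block and 182 with DESeq2. In WT DN3 against WT DN2, 4497 genes were called with 2 groups and 5510 with the block, and 3 members with the count filter and with limma. In HET DN3 against HET DN2, 461 genes were called with 2 groups and 125 with the block, and called members were 1 with the count filter, without 6 libraries, without 8 libraries and with limma, and 0 with 2 groups with or without the block. In HOM against WT DN2 the block left 1 called member. For the difference of the stage steps, called genes were 2 without 6 libraries, 5 without 8 libraries and 20 with DESeq2.

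Without a single library, called members ranged from 3 to 5 in HOM against WT DN3, 1 to 2 in HOM against HET DN3, 0 to 1 in HET DN3 against WT DN3, 3 to 5 in WT DN3 against WT DN2 and 0 to 3 in HET DN3 against HET DN2. Called genes ranged from 10 (without WT DN3 replicate 3) to 1662 (without HET DN3 replicate 5) in HET DN3 against WT DN3, from 838 (without HET DN3 replicate 5) to 1679 in HET DN3 against HET DN2, and from 0 to 1 for the difference of the stage steps.

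No called value changed sign. Among values that were not called, these did. In HOM against WT DN3, Hdac1 was 0.07 without 6 and without 8 libraries, 0.01 with 2 groups and 0.02 with limma. Chd4 in HET DN3 against WT DN3 was 0.03 with the block and 0.01 with limma, and Mbd2 was 0.05 without 6 libraries and 0.02 with limma. In HET DN2 against WT DN2, the count filter gave -0.03 for Chd4 and Gatad2a, and limma gave -0.01 for both; without 6 libraries Gatad2a was -0.01, Hdac1 0.04, Mbd3 0.03, Mta3 0.09 and Rbbp4 0.09, and without 8 libraries Hdac1 was 0.05, Mta3 0.04 and Rbbp4 0.10. Mta1, at 0.00 there, ranged from -0.03 to 0.09 over the 8 settings. Mbd3 in HET DN3 against HET DN2 was -0.03 without 6 libraries, -0.05 with the block and -0.01 with limma, and Mta2 was -0.01 without 6 libraries. For the difference of the stage steps, Chd4 was 0.01 with the block and 0.02 with limma, Mbd2 -0.04 without 8 libraries, Mta2 0.01 with limma and Mta3 -0.02 without 6 libraries. Without a single library, the values of genes that changed sign ranged as follows. In HOM against WT DN3, Hdac1 ranged from -0.03 to 0.03. In HET DN3 against WT DN3, Chd4 ranged from -0.06 to 0.02 and Mbd2 from -0.09 to 0.02. In HET DN2 against WT DN2, Chd4 ranged from -0.03 to 0.06, Gatad2a from -0.04 to 0.09, Hdac1 from -0.08 to 0.01, Mbd3 from -0.16 to 0.02, Mta1 (0.00 with all libraries) from -0.07 to 0.06, Mta3 from -0.09 to 0.07 and Rbbp4 from -0.12 to 0.05. In HET DN3 against HET DN2, Mbd2 ranged from -0.12 to 0.01 and Mbd3 from -0.06 to 0.09. For the difference of the stage steps, Chd4 and Mta2 ranged from -0.09 to 0.01 and Mta3 from -0.03 to 0.15.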
